A study of Mus musculus with 24 samples.

Results

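The respiratory chain subunits that are encoded in the nucleus were compared between the ovaries of 2 mouse lines. Members were all probe sets annotated to a single gene symbol that starts with Nduf followed by a, b, c, s or v and a digit, with Uqcr, Cox4i, Cox5, Cox6, Cox7, Cox8 or Atp5, or that is Sdha, Sdhb, Sdhc or Sdhd. The rule found 147 of the 22626 probe sets tested, which stand for 78 of 12393 measured genes. On this array each transcript is measured by 1 or more probe sets, groups of short oligonucleotides complementary to it. By complex, 65 probe sets belonged to complex I, 7 to complex II, 15 to complex III, 32 to complex IV and 28 to complex V.

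FL1 is an outbred line selected to generation 130 for an index of litter size and litter weight at birth. DUKsi is an inbred line of the same genetic pool that was selected for no trait. Ovaries of virgin females aged 6 to 9 weeks were taken at metestrus, with 30 animals per line combined into 6 pools, and each pool was hybridized to 2 Affymetrix mouse expression arrays. The methods give 5 animals per pool and the labels give 6. Selection and inbreeding both differ between the lines and cannot be told apart here, and a difference in the RNA of whole ovaries does not tell the number of cells of a type from the RNA content of each cell.

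The respiratory chain carries electrons from NADH (complex I, NADH dehydrogenase) and from succinate (complex II, succinate dehydrogenase) through complex III (the cytochrome bc1 complex) and cytochrome c to oxygen at complex IV (cytochrome c oxidase). The proton gradient built on the way drives complex V, the ATP synthase. A few subunits are made from mitochondrial DNA, and all others, including the members described here, are nuclear genes whose products are imported. In the ovary, luteal cells are rich in mitochondria, which also house the first step of steroid synthesis.

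Of the 147 probe sets, 7 were higher in FL1 at an adjusted p under 0.01 (limma, Benjamini-Hochberg adjustment over all probe sets), and 0 were lower. Among all probe sets, 1.83% were higher and 1.55% lower by the same test, and 3.38% differed in either direction, against 4.76% of the members. At an unadjusted p under 0.05, 47 members were higher and 5 were lower, where 8.25% of all probe sets were higher and 11.5% lower. The 7 probe sets belonged to 5 genes, Ndufv1, Ndufa7, Ndufc1, Ndufc2 and Cox5a, and none of these genes had all of its probe sets past the test. A ratio of the mean signals of at least 1.5 was reached by 3 of the 7, where 2.32% of all probe sets met both criteria. At an adjusted p under 0.05, 20 members were higher in FL1 and 0 lower, where 6.91% of all probe sets differed in either direction.

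Over all members, the 5 genes included, log2 fold changes above 0 were more frequent than among all probe sets. The log2 fold change of FL1 over DUKsi was above 0 in 109 of 147 member probe sets, or 74.1%, with a median of 0.09, whereas it was above 0 in 38.3% of all probe sets, with a median of -0.07. Counted by gene, with the probe set of the highest mean signal for each, 65 of 78 members lay above 0, or 83.3%, with a median of 0.09. Over all genes 41.1% lay above 0, with a median of -0.05. By that count 4 member genes were higher past the test and 0 lower, beside 2.05% and 1.65% of all genes, or 3.7% in either direction. The median standard error of a member's log2 fold change was 0.0829, so that a shift of the size of the median was not resolved for a single probe set.

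**Figure D1:**
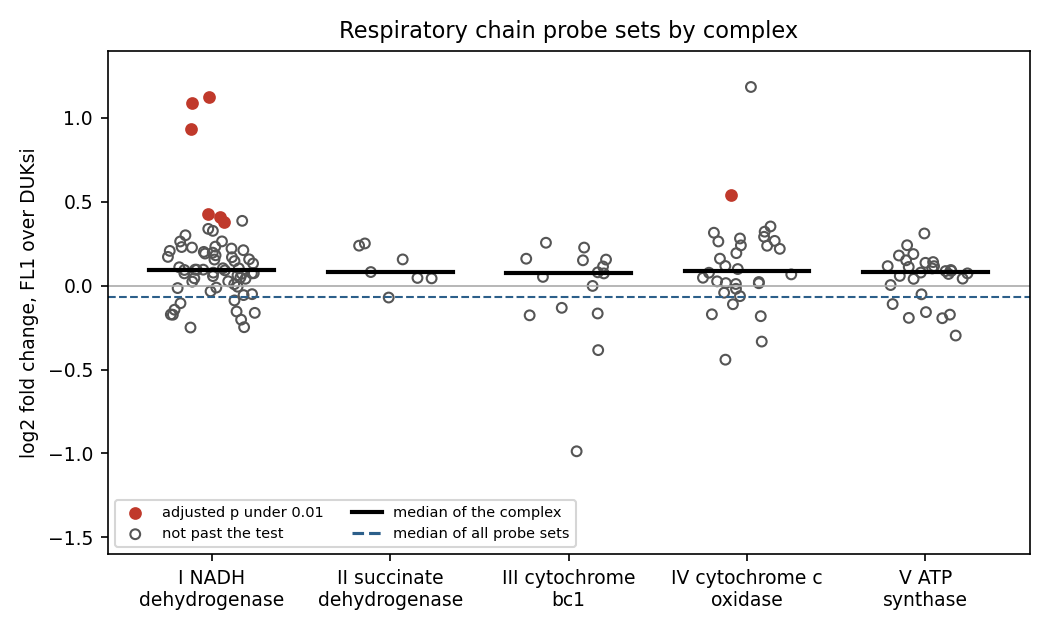
Log2 fold change of FL1 over DUKsi (y axis) for each of the 147 respiratory chain probe sets, grouped by complex (x axis), with filled points for an adjusted p under 0.01. The 7 filled points lie above 0, 6 of them in complex I, and the black median bars of all 5 complexes lie between 0.07 and 0.10, above the dashed median of all probe sets at -0.07.

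Respiratory chain transcripts are abundant, and bright probe sets of any kind tended to read higher in FL1. With a mean signal of at least 1000, 86.5% of 111 member probe sets lay above 0 with a median of 0.10, against 55.2% of 3571 among all probe sets with a median of 0.02. Between 1000 and 2000 the shares were 87.9% of 33 members and 50.1% of 2061 in all. Between 2000 and 5000 they were 82.8% of 58 and 58.1% of 1090, and at 5000 or more they were 95% of 20 and 73.1% of 420. Under 1000 the shares were 36.1% of 36 and 35.1% of 19055. The members past the test were divided otherwise. Of the 36 dim members 3 passed, or 8.33%, against 2.81% of all dim probe sets, and these were the 3 with the largest differences past the test, from Ndufv1 and Ndufa7. Of the 111 bright members 4 passed, or 3.60%, against 6.41% of all bright probe sets. These shares describe the members within each range of brightness and carry no test.

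**Figure D2:**
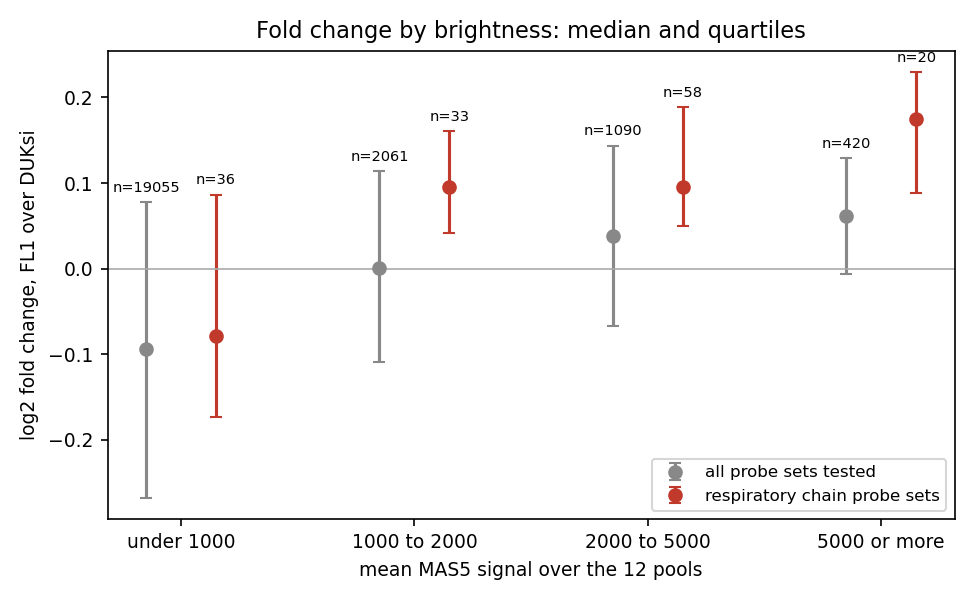
Median log2 fold change with quartiles (y axis) in 4 ranges of mean MAS5 signal over the 12 pools (x axis), for all probe sets tested and for the respiratory chain probe sets, with the number of probe sets above each bar. The member medians were 0.10, 0.10 and 0.17 in the 3 ranges from 1000 upward against 0.00, 0.04 and 0.06 for all, and -0.08 against -0.09 under 1000.

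Many respiratory chain promoters hold sites of the factor NRF1 or of ETS factors such as GABP. The 250 bases before annotated starts of each gene (RefSeq, GRCm38.p6) were searched on both strands for GCGCATGCGC (NRF1), CCGGAAG (ETS), GGGCGG (GC box) and TCAAGGTCA (ERR). Such a start need not be the end of the gene's span, and the window of Cox5a lies within the gene. Windows of 64 of the 78 genes were at hand, 69 in all. NRF1 letters were in 3 of them, or 4.35%, against 0.782% of 32851 windows of any gene and 1.27% of those of measured genes. ETS letters were in 17.4%, against 6.91% and 10.9%. The GC box was in 33.3%, against 32.7% and 51.3%. The ERR letters were in 1 window, or 1.45%, against 0.387% and 0.279%. The NRF1 letters stood before Cox6a1, Atp5g2 and Atp5k. The 3 probe sets of Atp5k had log2 fold changes from -0.19 to 0.14, and 0 passed the test. Cox6a1 and Atp5g2, by their brightest probe sets, had log2 fold changes of 0.19 and -0.19 and did not pass the test. The window of Ndufv1, the gene with the largest difference past the test, holds none of the letters. These 3 windows are shown 5′ to 3′ with matches in capitals, the shorter capitals in Cox6a1 being GC boxes and an ETS match, all on the other strand.
Cox6a1, chr5:115348959-115349208, minus strand: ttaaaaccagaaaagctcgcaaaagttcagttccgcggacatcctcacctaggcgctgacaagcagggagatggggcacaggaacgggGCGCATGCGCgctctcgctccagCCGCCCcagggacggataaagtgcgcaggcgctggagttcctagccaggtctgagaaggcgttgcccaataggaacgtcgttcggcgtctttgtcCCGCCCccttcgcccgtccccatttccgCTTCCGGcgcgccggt
Atp5g2, chr15:102671048-102671297, minus strand: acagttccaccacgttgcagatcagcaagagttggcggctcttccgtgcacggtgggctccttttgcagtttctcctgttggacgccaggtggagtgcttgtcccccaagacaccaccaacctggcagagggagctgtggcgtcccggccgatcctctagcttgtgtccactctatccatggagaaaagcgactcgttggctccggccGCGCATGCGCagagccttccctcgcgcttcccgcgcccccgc
Ndufv1, chr19:4012756-4013005, minus strand: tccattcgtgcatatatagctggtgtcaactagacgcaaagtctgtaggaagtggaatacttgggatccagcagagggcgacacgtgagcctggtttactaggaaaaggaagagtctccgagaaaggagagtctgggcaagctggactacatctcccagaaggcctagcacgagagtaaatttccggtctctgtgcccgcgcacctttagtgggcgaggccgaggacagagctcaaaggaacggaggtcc
A match is a description of the letters and not a site shown to be bound.

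Complex I held 6 of the 7 probe sets past the test, or 9.23% of its 65 probe sets, against 3.38% of all. Ndufv1 and Ndufa7 gave 2 of them each. By the brightest probe set of each gene, 3 of 33 complex I genes passed, or 9.09%, against 3.7% of all genes. Ndufv1 encodes the subunit that binds NADH and the flavin cofactor. Its probe set 1415966_a_at read 1009 to 1155 in the FL1 pools with a median of 1108, and 494 to 536 in the DUKsi pools with a median of 513. Every FL1 pool lay well above every DUKsi pool. FL1 had a mean signal of 1096 ± 58.3 and DUKsi of 515 ± 17.8 (± SD over 6 pools), a log2 fold change of 1.09 ± 0.0622 (SE, limma, adjusted p = 2.07e-08). The probe set 1456015_x_at read 1192 to 1323 in FL1 with a median of 1264 and 502 to 709 in DUKsi with a median of 584, again without overlap, at a log2 fold change of 1.12 (limma, adjusted p = 3.85e-07). The remaining probe set of the gene, 1415967_at, read 1466 to 1820 in FL1 and 1561 to 1697 in DUKsi, with medians of 1741 and 1671. Here the lines overlapped, and the log2 fold change was 0.04 with a 95% interval from -0.09 to 0.17 (limma, adjusted p = 0.759). The probe sets of Ndufv1 thus gave a difference of about 2.13-fold and none that could be resolved for the same annotated gene, which lies at chr19:4007499-4012755 (GRCm38.p6).

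Ndufa7, a supernumerary subunit of complex I, had 5 probe sets. The probe set 1455749_x_at read 840.0 to 1028 in FL1 with a median of 910.2 and 441 to 546 in DUKsi with a median of 477, a log2 fold change of 0.93 (limma, adjusted p = 2.87e-06). This probe set is on the study's own list of differing transcripts, so it is not independent evidence. The probe set 1428360_x_at read 4383 to 4839 in FL1 with a median of 4520 and 3143 to 3538 in DUKsi with a median of 3434, a log2 fold change of 0.43 (limma, adjusted p = 8.35e-05). For both, all FL1 pools lay above all DUKsi pools. The other probe sets had log2 fold changes of 0.30, 0.11 and 0.10 and did not pass the test, the adjusted p of the first being 0.0355. The gene lies at chr17:33824572-33838316.

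Ndufc1 and Ndufc2 encode small subunits of the membrane arm of complex I. The Ndufc1 probe set 1416285_at read 3919 to 4768 in FL1 with a median of 4168 and 2960 to 3462 in DUKsi with a median of 3268. The lines did not overlap, and the log2 fold change was 0.38 (limma, adjusted p = 0.00107). Its other probe set had 0.21 (limma, adjusted p = 0.067). The Ndufc2 probe set 1455036_s_at read 4617 to 5269 in FL1 with a median of 5094 and 3456 to 4546 in DUKsi with a median of 3718, a log2 fold change of 0.41 (limma, adjusted p = 0.00175), also without overlap. The other Ndufc2 probe set, 1416366_at, went the other way with a log2 fold change of -0.25, and its interval from -0.56 to 0.06 included 0 (limma, adjusted p = 0.375). Ndufc1 lies at chr3:51405479-51408955 and Ndufc2 at chr7:97400003-97407800.

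**Figure D3:**
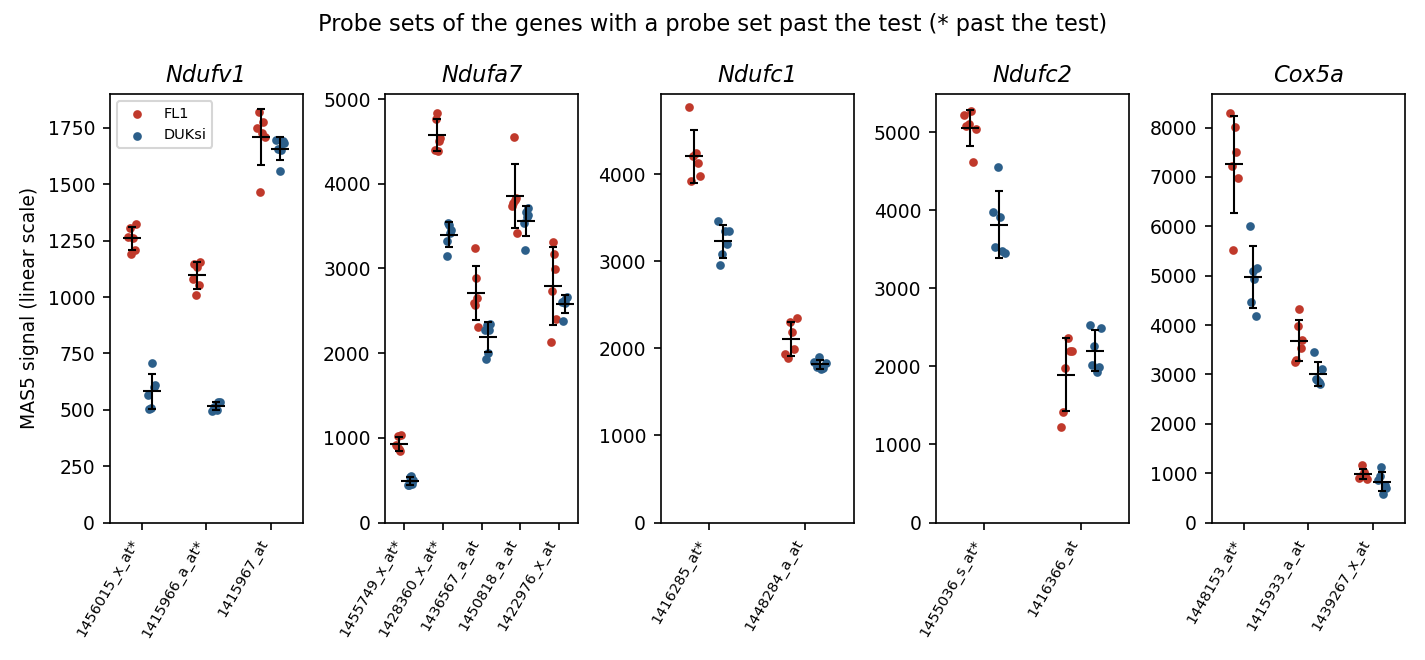
MAS5 signal on a linear scale (y axis) of every probe set (x axis) of the 5 genes with a probe set past the test, with 1 point per pool and bars for the mean and SD of the 6 pools of a line. Starred probe sets passed the test, and in Ndufv1 the pools separate for the 2 starred probe sets but overlap for 1415967_at.

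The other subunits of complex I did not pass the test. Among the core subunits encoded in the nucleus, which carry the flavin and the iron-sulfur clusters and are conserved from bacteria, 6 were measured, Ndufv1 included. All 6 lay above 0 with a median log2 fold change of 0.13, and 0 passed by their brightest probe sets. Ndufs1, the largest iron-sulfur subunit, read 1083 to 1703 in FL1 with a median of 1394 and 1007 to 1229 in DUKsi with a median of 1032. Its pools overlapped (log2 fold change 0.39; limma, adjusted p = 0.0307). Ndufv2, the partner of Ndufv1 in the NADH-binding module, read 3042 to 3573 in FL1 and 2798 to 3040 in DUKsi for its brightest probe set. The lines came close without overlap (log2 fold change 0.17; limma, adjusted p = 0.0822). Ndufb9, an accessory subunit of the membrane arm, had log2 fold changes of 0.34 (limma, adjusted p = 0.0204) and 0.16 in its bright probe sets, and its remaining probe set was near background. Ndufa3, the brightest member of complex I, had 5945 ± 235 in FL1 against 5160.1 ± 420.4 in DUKsi (limma, adjusted p = 0.0549). Ndufa4, counted in complex I by its symbol although its product is a subunit of complex IV, had a log2 fold change of 0.23 (limma, adjusted p = 0.101).

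Of the 33 complex I genes, 28 lay above 0 by their brightest probe sets. The lowest was Ndufb8 at -0.17, which was not past the test either.

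In complex II, which has 4 subunits and no mitochondrially encoded member, no gene passed the test. Sdha carries the flavin and Sdhb the iron-sulfur clusters, and Sdhc and Sdhd anchor both in the membrane. Sdhb read 2923 to 3721 in FL1 with a median of 3215 and 2706 to 3180.0 in DUKsi with a median of 2863, overlapping between the lines (log2 fold change 0.16; limma, adjusted p = 0.193). The Sdha probe sets had log2 fold changes of 0.08 and 0.25, and both Sdhc probe sets had about 0.04 to 0.05. Sdhd varied most between pools, from 969 to 2534 in FL1 and from 1021 to 1948 in DUKsi, and its log2 fold change of 0.24 had an interval from -0.20 to 0.68.

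In complex III no gene passed the test either. Uqcrb, a small subunit at the ubiquinone site, was the brightest, with 13924 to 16132 in FL1 around a median of 15456 and 11981 to 14283 in DUKsi around a median of 12903. Only the ends of the ranges overlapped (log2 fold change 0.23; limma, adjusted p = 0.0418). The Rieske iron-sulfur protein Uqcrfs1 had 2644 ± 522 in FL1 and 2180 ± 78.1 in DUKsi, a log2 fold change of 0.26 (limma, adjusted p = 0.184). The core proteins Uqcrc1 and Uqcrc2 had log2 fold changes of 0.08 and 0.11, and Uqcrh had -0.00. The lowest value among all members, -0.99, came from a dim Uqcr10 probe set with mean signals of 34.4 and 65.7, while its brightest probe set had 0.07.

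Complex IV had 1 gene past the test. Cox5a, a nuclear subunit of cytochrome c oxidase, read 5527 to 8295 in FL1 with a median of 7357 and 4192 to 6011 in DUKsi with a median of 5012 by probe set 1448153_at. The lowest FL1 pool, pool 3, lay below the highest DUKsi pool, and the other FL1 pools lay above all DUKsi pools. The log2 fold change was 0.54 ± 0.101 (SE, limma, adjusted p = 0.0031). The others had 0.29 (limma, adjusted p = 0.0345) and 0.26 (adjusted p = 0.273). Cox5a lies at chr9:57517328-57532427. In the methods' t-test, with the first array of each pool alone, without the variance trend and without DUKsi pool 2 its adjusted p rose above 0.01, to at most 0.0363.

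Several small subunits of complex IV, which surround its catalytic core, had log2 fold changes above 0 at an adjusted p between 0.01 and 0.05. Cox6c read 10375 to 12486 in FL1 with a median of 11823 and 8587 to 10126 in DUKsi with a median of 9844 by its brighter probe set, without overlap (log2 fold change 0.27; limma, adjusted p = 0.0224). Its dimmer probe set had -0.11. Cox6b1 read 7482 to 8495 in FL1 with a median of 7732 and 6082 to 7255 in DUKsi with a median of 6651, also without overlap (log2 fold change 0.24; limma, adjusted p = 0.0237). Cox8a had log2 fold changes of 0.32 (limma, adjusted p = 0.0121) and 0.32 (adjusted p = 0.0478) in its bright probe sets, and -0.02 in a dim one. Cox6a1 had 0.19 and 0.24 (limma, adjusted p = 0.049 and 0.0443). By contrast Cox4i1, the large subunit at which ATP binds, had 0.03 with an interval from -0.11 to 0.16. None of the Cox5b probe sets passed, and those with a mean signal above 1000 ran from -0.06 to 0.10.

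Several complex IV subunits exist in a common form and a form of particular tissues. Cox7a1, the form known from heart, skeletal muscle and brown fat, had the highest fold change of all members at a low signal. It read 63.9 to 215 in FL1 with a median of 150.4 and 37.4 to 84.0 in DUKsi with a median of 62.5. The lines overlapped, with FL1 pool 5 inside the DUKsi range, and the log2 fold change was 1.18 with an interval from 0.56 to 1.80 (limma, adjusted p = 0.0216). The other muscle forms were low and did not pass the test, with mean signals of 162 and 184 for Cox6a2 and of 34.5 and 28.2 for Cox8b in FL1 and DUKsi. Of 6 brown adipocyte markers, among them Cox7a1 and Cox8b, 0 passed the test and 3 were near background, Ucp1 with mean signals of 12.7 and 14.99, Cidea with 11.7 and 24.6, and Cox8b. None of 7 striated muscle markers passed either, and 4 of them were near background. The common form Cox7a2 had its brightest probe set at 0.16, and the related gene Cox7a2l had its own at -0.04. Cox4i2 and Cox6b2, which are not the common forms, had 0.01 each. Cox7c was measured only by dim probe sets, of which 1459885_s_at read 88.8 to 145 in FL1 and 152 to 185 in DUKsi (log2 fold change -0.44; limma, adjusted p = 0.0861). It was the only member with every FL1 pool below every DUKsi pool, as 2.39% of all probe sets were. In 9 members, or 6.12%, every FL1 pool lay above every DUKsi pool, as in 2.24% of all probe sets. With a mean signal of at least 1000 the shares were close, at 5.41% of 111 members and 5.35% of 3571 in all.

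In complex V no gene passed the test. The 5 genes of the catalytic head had a median of 0.09, like the members as a whole, and 4 of them lay above 0. The catalytic subunit Atp5b had 6375 ± 755 in FL1 and 5970 ± 277 in DUKsi. Subunit c, the ring that turns with proton flow, is made from 3 genes that encode the same mature protein. Atp5g3, the brightest member of complex V, had a log2 fold change of 0.10, and Atp5g1 had 0.15. Atp5g2 read 4164 to 4818 in FL1 with a median of 4405 and 4474 to 5450.3 in DUKsi with a median of 5122. It thus pointed the other way with some overlap, at -0.19 (limma, adjusted p = 0.095). Among the 4 genes of the peripheral stalk, Atp5pb had 0.24 in its dimmer probe set (limma, adjusted p = 0.0174) and 0.09 in its brighter one (adjusted p = 0.644).

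Probe sets of the same gene often differed in direction. Of 43 genes with several probe sets, 22 had all of them on the same side of 0 and 21 had not, with a median spread of 0.17 between the lowest and the highest log2 fold change. Where only probe sets with a mean signal of at least 1000 were counted, 22 of 31 genes kept to the same side. Of the 147 probe sets, 41 carry the suffix _x_at or _s_at, which marks probes that can bind transcripts of other genes, and such genes have many processed copies in the genome. Leaving these probe sets out, 3 of the 7 were left, those of Ndufv1, Ndufc1 and Cox5a. That is 3 of 106 members without these suffixes, where 3.22% of all such probe sets passed.

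Averaged over their genes, complexes I, III and IV separated the pools of the lines, and complexes II and V did not. The mean log2 signal of the 78 genes relative to the mean of all 12 pools was 0.0098 to 0.105 in the FL1 pools and -0.0817 to -0.0039 in the DUKsi pools, without overlap, a difference of 0.118. For the 2346 genes of any kind with a mean signal of at least 1000 the difference was 0.0418. There the lines overlapped by FL1 pool 3 alone, at -0.0143 against a highest DUKsi pool of -0.0044. The other FL1 pools, at 0.0136 to 0.0384, lay above every DUKsi pool. The differences were 0.125 in complex I, 0.120 in III and 0.146 in IV, although in complex I FL1 pool 5 lay just under 0. Of the 16 complex IV genes, 9 had a mean signal of at least 1000. Each gene counts alike, and their log2 fold changes ran from -0.44 in Cox7c to 1.18 in Cox7a1, both dim. The difference without these genes was not computed. Complex V overlapped, with a difference of 0.0735. Complex II overlapped widely, from -0.256 in FL1 pool 3 to 0.364 in FL1 pool 1.

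**Figure D4:**
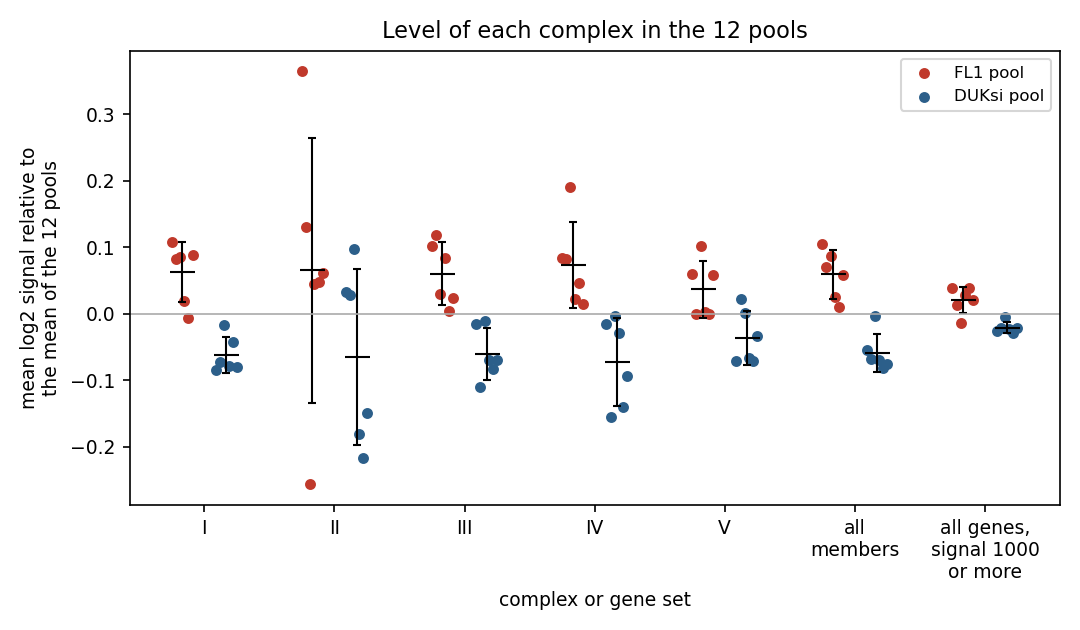
Mean log2 signal over the genes of each complex relative to the mean of the 12 pools (y axis), with 1 point per pool and bars for the mean and SD of 6 pools, beside all members and all genes with a mean signal of at least 1000 (x axis). The lines separate in complexes I, III and IV and over all members, where FL1 pools lie at 0.0098 to 0.105, and overlap in complexes II and V.

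A measure of RNA quality and the signals of several cell type markers differed between the lines. The ratio of 3' to 5' signal of the beta-actin controls was higher in FL1, at 1.67 ± 0.423 against 1.27 ± 0.0522 in DUKsi (± SD over the pools; p = 0.00216 in a two-sided exact permutation test, which is the lowest p that 6 pools per line can reach), and FL1 pool 3 had the highest value, 2.45. The same ratio of the GAPDH controls was 1.53 ± 0.420 in FL1 and 1.28 ± 0.146 in DUKsi, with overlap (exact permutation p = 0.203). The median signal of the arrays was lower in FL1, at 221 ± 7.98 against 235 ± 4.95 (exact permutation p = 0.0108), and scaling all arrays to the same median moved the count of members past the test from 7 to 18, with 3.82% of all probe sets past it. With this ratio as a covariate, 14 members passed the test, 11 higher and 3 lower in FL1, while the share of all probe sets that passed also rose, from 3.38% to 5.48%. The share above 0 was then 61.9% of members and 38.4% of all probe sets. The lower ones were Atp5h at -0.46, Cox8c at -0.72 and Ndufb6 at -0.52, each by 1 probe set (limma, adjusted p = 0.0064, 0.00463 and 0.00418). All 7 measured luteal cell markers lay above 0 and 3 of them rose in FL1, with a summed signal of 43748 to 51020.2 in FL1 and 24201 to 33651 in DUKsi. Over all genes 41.1% lay above 0, and 2.05% were higher and 1.65% lower past the test. Of 6 granulosa cell markers Inhba fell, and all 8 oocyte markers lay below 0, where Zp3 fell. None of 3 theca cell, 4 adipocyte and 5 macrophage markers passed, and Upk3b of 5 surface epithelium and oviduct markers and Alas2 of 4 red blood cell markers rose. The part of these differences in the results on the respiratory chain was not tested.

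Other mitochondrial genes were set beside the members, each by its brightest probe set. Of all genes counted this way, 41.1% lay above 0 and 2.05% were higher past the test. Of all probe sets with a mean signal of at least 1000, 55.2% lay above 0 and 6.41% passed in either direction. Of 14 genes of fatty acid oxidation, which feeds electrons into the chain, 13 lay above 0 with a median of 0.21 and 3 rose in FL1, among them Decr1 (log2 fold change 0.74; limma, adjusted p = 7.41e-06) and Hadh (0.42; adjusted p = 0.00108). Etfa, a subunit of the flavoprotein that takes electrons from fatty acid oxidation toward the chain, had 2960.3 ± 311 in FL1 and 1997 ± 84.9 in DUKsi. Its log2 fold change was 0.56 (limma, adjusted p = 0.00013). Etfa was the only 1 of 7 electron carriers and further subunits to pass, and 5 of the 7 lay above 0 and 2 below. Etfb and Etfdh, of the same path, had 0.17 and 0.35 (limma, adjusted p = 0.175 and 0.188). In the citric acid cycle 14 of 15 genes lay above 0 with a median of 0.12, and Pdha1 rose (0.46; limma, adjusted p = 0.00325). Of 74 mitochondrial ribosomal proteins, 41 lay above 0 with a median of 0.02 and Mrpl35 rose (0.76; limma, adjusted p = 3.27e-05).

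None of 29 assembly factors passed the test, and 15 lay above 0 with a median of 0.00. The 15 regulators of respiratory chain genes, such as the transcription factors of the NRF and ERR families, had a median of -0.11 and 0 past the test. The 25 genes of the outer membrane, protein import and carriers had a median of -0.01 and 0 past the test. The mitochondrially encoded subunit ND5, measured by 1 probe set outside the rule, had 15123 ± 578 in FL1 and 14204 ± 1608 in DUKsi, a log2 fold change of 0.10 (limma, adjusted p = 0.501).

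**Figure D5:**
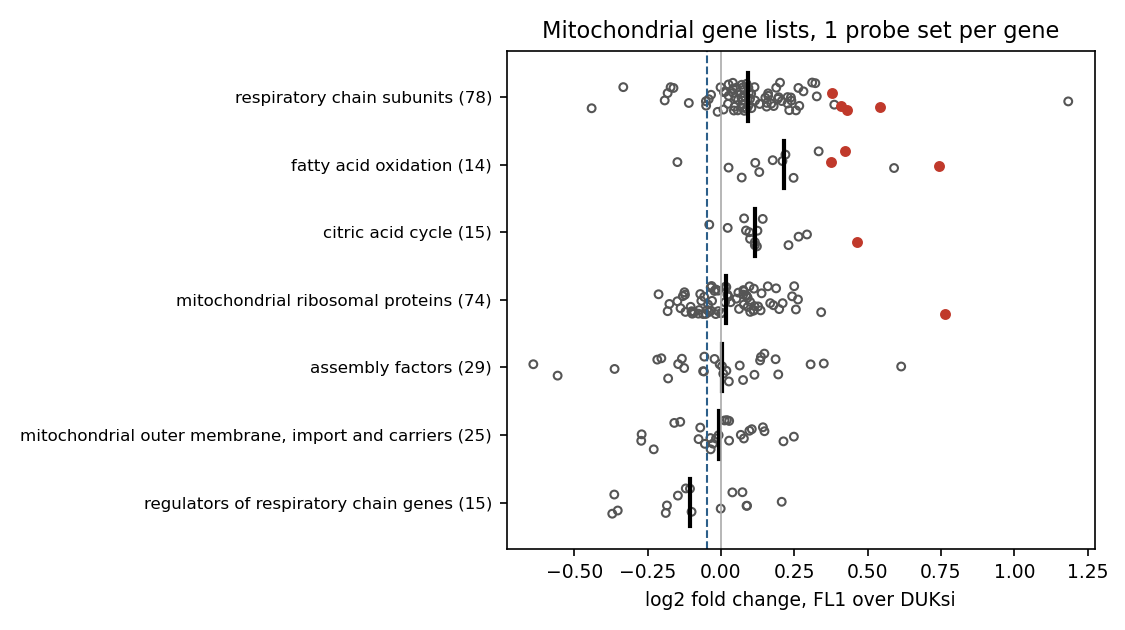
Log2 fold change of FL1 over DUKsi (x axis) of each gene by its brightest probe set, for the respiratory chain subunits and 6 other mitochondrial gene lists (y axis, with the number of genes), with filled points for an adjusted p under 0.01, a bar at the median of each list and a dashed line at the median of all genes. Medians run from 0.21 for fatty acid oxidation and 0.12 for the citric acid cycle to -0.11 for the regulators, with the respiratory chain at 0.09.

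The genes with a probe set past the test lay on 5 different chromosomes. Of the 10 nearest measured genes of each, 0 had a probe set past the test beside Ndufa7 and Cox5a, 1 beside Ndufv1 (Aldh3b1), 2 beside Ndufc1 and 3 beside Ndufc2, where 4.65% of all placed genes had 1.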

How the data were processed

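The authors hybridized pooled ovary RNA of FL1 and DUKsi to Affymetrix mouse expression arrays, 24 in all, each with 22690 probe sets. The deposited values are linear signal intensities, which the authors computed with MAS5 (named in the submitters' processing notes and the methods, version as stored not given in the sources used here) and scaled to a common level, so that the trimmed mean of each array was 500.1 and the medians ran from 212 to 244.5. All arrays differed from each other in their values, and the number of pools limits the precision. Present calls and single-probe intensities were not used here. The order of a pool's arrays was taken from the labels, and no column of other samples was used.

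The mean of the 2 arrays of a pool was taken, and log2 of these means entered limma 3.58.1 under R 4.3.3 (lmFit, then eBayes with an intensity trend), 12 pools in all. Control probe sets, 64 in number, were not tested, and the Benjamini-Hochberg adjustment ran over the other 22626. A probe set passed the test at an adjusted p under 0.01. Fold changes are FL1 over DUKsi, and p-values measure the spread between pools, each of several animals. A signal under 48.4, below which 20% of all signals lie, is called near background. The procedure was tested on simulated data, with 50 changes of each size in probe sets not near background. Of these, 16 passed at 1.5-fold, 34 at 2-fold and 49 at 4-fold, and 2 unchanged probe sets passed. Not passing the test therefore does not by itself show that a 1.5-fold difference is absent. Recovery among the members alone was not simulated. Their median standard error was 0.0829, against 0.154 for all probe sets tested. For a single member the interval of its log2 fold change is more direct. The intervals of Cox4i1 (-0.11 to 0.16) and Ndufv1 1415967_at (-0.09 to 0.17) excluded a 1.5-fold difference. That of Sdhd 1428235_at (-0.20 to 0.68) did not.

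The platform annotation names 1 gene for 20380 probe sets, several for 691 and none for 1555, and 7 probe sets with several symbols of which 1 fits the rule were left out, none of which passed. All 78 member symbols matched RefSeq. Named genes were, in each complex, up to 6 past the test in each direction and the brightest gene, Ndufa7, the tissue isoform groups and the complex II genes, and up to 2 past the test in each further list. Other subunits were named after their values were seen. The members, lists and tests were chosen with earlier results of these data known, so no list was tested as a set. Groups came from the sample titles. Tables and plots were made with Python 3.11.15, pandas 2.3.3 and matplotlib 3.10.9.

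Alternatives covered the technical arrays (each used alone, log2 before averaging, or 24 arrays in which pools are random blocks), the scaling (quantile normalization or an equal median per array), low signals (48.4 added before log2, or the dimmest 40% left out), the test (the methods' t-test on linear signals, limma with no trend or in its robust form, a block for the pool number), other thresholds, the actin ratio as a covariate, other choices among a gene's probe sets, and pools left out. Members with a mean signal of at least 1000 were counted alone as a choice made after seeing the data. Values that lie far from the other 5 pools of a line were looked for by Dixon's ratio.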

Additional observations from a re-analysis of the deposited data

Results flagged for a closer look

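In the 120 groups of 6 pools checked, formed by the named probe sets and the pool averages, 11 held a pool whose gap to the nearest other pool, divided by the range of the line, was above Dixon's critical value for 6 values. Chance alone gives such a pool in about 1 in 20 groups. FL1 pool 3, the pool with the highest actin 3' to 5' ratio, stood high for Ndufa3 1428464_at (5369 against 4197 to 4594 in the other 5 pools; gap ratio 0.661), Ndufa7 1450818_a_at (4552 against 3422 to 3834; 0.635) and Cox5b 1436149_at (162 against 75.7 to 101; 0.704), and low for Ndufv1 1415967_at (1466 against 1710 to 1820; 0.689). None of these probe sets passed the test.

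In DUKsi, pool 2 stood low for Ndufa7 1450818_a_at (3223 against 3534 to 3716; 0.632) and Ndufa7 1422976_x_at (2378 against 2590 to 2669; 0.728). DUKsi pool 3 stood low for Ndufv1 1415967_at (1561 against 1651 to 1697; 0.665) and high for Cox8a 1416112_at (4830.4 against 3800 to 4156; 0.654), and DUKsi pool 4 stood high for Ndufa3 1428464_at (4994 against 3615 to 4096; 0.652).

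Of the probe sets past the test, Ndufc1 1416285_at had FL1 pool 1 above the others (4768 against 3919 to 4236; 0.626), and Ndufc2 1455036_s_at had FL1 pool 5 below them (4617 against 5034 to 5269; 0.640). For both the lines stayed apart. The adjusted p of each without that pool was under 0.01.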

How the results depend on the processing

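The count of 7 members past the test became 17 with all 24 arrays and the pool as a random block (5.65% of all probe sets passed, against 3.38%), 18 with arrays scaled to the same median (3.82%), 14 with the actin ratio as a covariate (5.48%) and 20 at an adjusted p under 0.05 (6.91%). It became 3 with a fold of at least 1.5 (2.32% of all), 3 without _x_at and _s_at probe sets (3.22%), 4 with 1 probe set per gene (3.7%), where Ndufv1 did not pass, 4 with the mean over a gene's probe sets (Ndufv1, Ndufa7, Ndufc1 and Cox5a) and 4 among members with a mean signal of at least 1000 (6.41%), a choice made after seeing the data. Leaving out 1 pool at a time gave 6 to 10, where 2.53% to 4.17% of all probe sets passed. The count of 10 and the share of 4.17% both came without FL1 pool 3. Ndufv1 1415966_a_at and 1456015_x_at and Ndufa7 1455749_x_at and 1428360_x_at had an adjusted p under 0.01 in all 26 alternatives fitted by probe set, Ndufc1 failed with the first array alone (limma, adjusted p = 0.0136) and Ndufc2 without the trend and with the actin ratio (at most 0.0125).

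No median of a complex changed sign. With the same median per array, which moved the median of all probe sets from -0.07 to 0.02, the medians were 0.18 in complex I, 0.16 in III, 0.18 in IV and 0.17 in V. With quantile normalization they were 0.0533 in I and 0.0192 in V. With the actin ratio they were 0.25 in II and 0.00537 in V, and among members of at least 1000 the median of III was 0.13. The median of V was 0.0332 without FL1 pool 3 and 0.0253 without FL1 pool 3 and DUKsi pool 4. With 1 pool left out the medians ran from 0.0814 to 0.120 in I, 0.0298 to 0.151 in II, 0.0390 to 0.0899 in III, 0.0670 to 0.140 in IV and 0.0332 to 0.0951 in V. The cause of these shifts was not tested.

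With the pool number as a replicate block 7 members passed, the same 7. Pools of the same number did not deviate together (correlations from -0.31 to 0.18, and no pool was closest to its own number), so the numbers do not pair them.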
